A study of Drosophila melanogaster with 18 samples.

Results

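The genes described here encode the proteins of the mitochondrial ribosome. They are the 72 of 17811 features whose FlyBase identifier maps to a symbol beginning with mRpL (47 genes) or mRpS (25 genes). They were chosen from the count table by name and not by their values, although earlier results of these data were known. Genes named mRpL are called large-subunit and those named mRpS small-subunit by this letter alone. The place of each protein in the ribosome was not checked. Nuclear RNA of Drosophila melanogaster outer photoreceptors R1–R6 was measured in 6 conditions of 3 samples each. Flies were males with white eyes from the cn bw background, and all of them carried a GFP-KASH nuclear tag driven by the regulatory elements of ninaE (Rh1), the rhodopsin gene of R1–R6. Flies at day 5 were exposed to blue light for 3 h, for 5 h or for 8 h, and these conditions are named by the hours. Aged samples came from untreated flies at day 15 (D15) and day 30 (D30), and the untreated reference was D5. The tag line was 1 insertion, located near the Catalase gene, and it was shared by every condition, including D5. Each sample pooled many flies, the tagged nuclei were purified by immunoprecipitation, and ribosomal RNA was removed before sequencing.

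Mitochondria keep their own ribosomes to translate the few proteins encoded in the mitochondrial genome, all of which are parts of the respiratory chain and ATP synthase. The RNA of these ribosomes is made inside the mitochondrion, whereas their proteins are encoded in the nucleus, translated in the cytosol and imported. Photoreceptors spend much energy on phototransduction and depend on this respiratory machinery. In these samples, nuclear RNA reports the pre-mRNA and mRNA present in the nucleus, not the mature pool in the cytosol.

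Read pairs counted on genes ranged between 11.4 and 20.5 M per sample, of which 3009 to 6401 fell on the 72 members together. Marker genes of R1–R6 summed to between 43500 and 81300 cpm (counts scaled to library size by TMM) in the 18 samples. Against this, 7 markers of hemocytes and fat body summed to 942 to 2660 cpm and 7 glia markers to 271 to 2050 cpm. The sums were 433 to 1960 cpm for 5 muscle markers and 715 to 1620 cpm for 9 markers of other neurons. They were 486 to 1180 cpm for 5 markers of pigment and cone cells and 143 to 643 cpm for 4 markers of the photoreceptors R7 and R8. D30 replicate 1 stood apart, with the lowest R1–R6 sum and the highest muscle and R7 and R8 sums of all samples. The untreated D5 and D15 samples ran together on 1 lane and the 9 samples with blue light on a different lane of that flow cell, whereas D30 had a flow cell of its own. Lane and condition therefore cannot be told apart except for D15 over D5 and among the blue-light samples. Nothing in the labels says how the replicates were reared, so p-values refer to these samples only. In the fit described below, they weigh each change against the spread left after factors of unwanted variation, estimated from the replicates, are fitted. Fewer nuclei of a type and less RNA per nucleus cannot be told apart in such bulk samples.

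The members were expressed at a low level. Levels between genes are given as RPKM, cpm per kilobase of exon, averaged over the 18 samples. The median member was at 3.28 RPKM, against 72.2 RPKM for 92 cytosolic ribosomal protein genes, 17.0 RPKM for 87 nuclear genes of the respiratory chain and ATP synthase, and 2.45 RPKM for all features with counts. The large-subunit genes had a median of 3.23 RPKM and the small-subunit genes one of 3.63 RPKM. In all, 69 of the 72 members averaged under 10 RPKM.

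**Figure D1:**
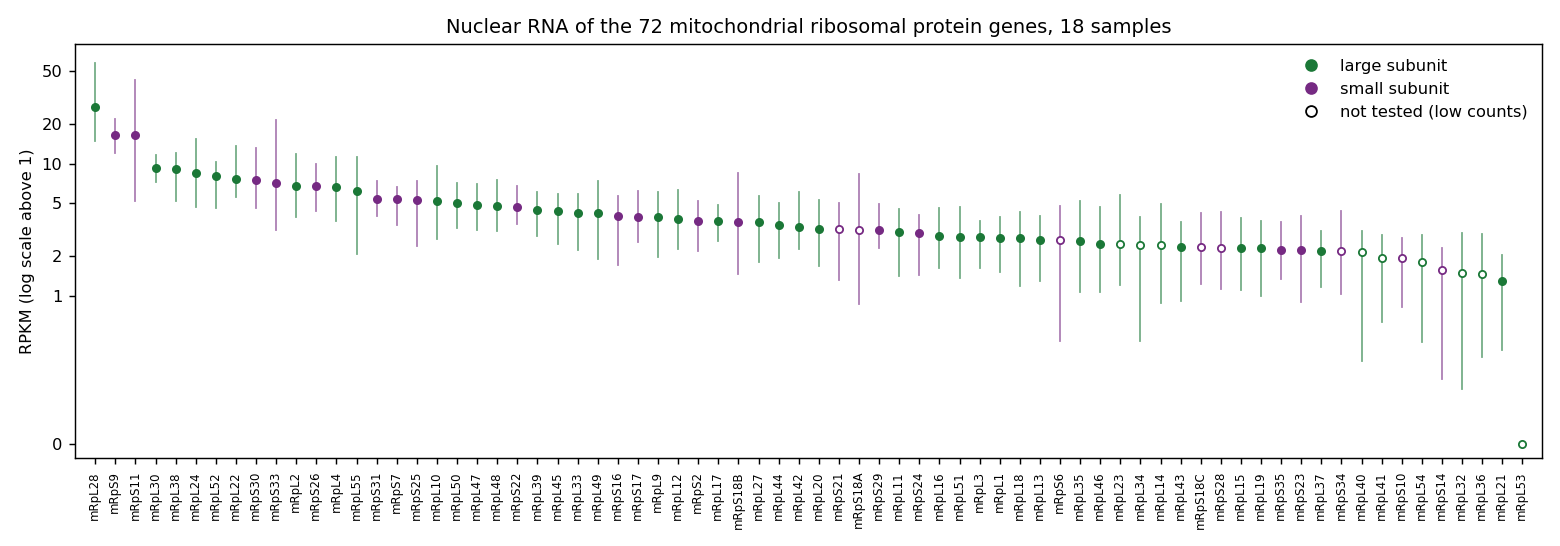
RPKM of each of the 72 members (vertical axis, logarithmic above 1), ordered by their mean. Points are means over 18 samples, lines run between the lowest and the highest sample, and open points mark the 17 members whose counts were too low to test. Only mRpL28, mRpS9 and mRpS11 average above 10 RPKM, and mRpL53 has no counts.

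The highest member was mRpL28, a large-subunit protein of bacterial ancestry, at 26.8 ± 13.0 RPKM (SD over 18 samples). It was followed by mRpS9, whose bacterial counterpart lies in the head of the small subunit, at 16.5 ± 2.83 RPKM, and by mRpS11, part of the platform that holds the mRNA near its exit, at 16.3 ± 12.5 RPKM. The order of these neighbours did not hold within each condition. mRpS11 averaged 7.46 ± 2.21, 37.2 ± 5.03, 21.4 ± 16.1 and 7.73 ± 0.816 RPKM after 0, 3, 5 and 8 h of light at day 5 (SD, n = 3 each), whereas mRpS9 averaged 18.1 ± 2.12, 16 ± 2.85, 17.0 ± 3.94 and 18.7 ± 2.58 RPKM in the same conditions. mRpL30, a large-subunit protein, came next at 9.21 ± 1.13 RPKM and stayed between 7.23 and 11.6 RPKM in all 18 samples. The lowest members with counts, the large-subunit proteins mRpL21, mRpL36 and mRpL32, averaged 1.31 ± 0.436, 1.47 ± 0.626 and 1.48 ± 0.696 RPKM, closer to each other than their spread over samples.

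Members with well-studied roles lay in the middle of the range. mRpL12 forms the flexible stalk that recruits translation factors and averaged 3.82 ± 1.21 RPKM over the 18 samples. mRpL10, which anchors that stalk, averaged 5.20 ± 1.63 RPKM. mRpS29 is the fly counterpart of human DAP3, a GTP-binding protein of the small subunit, and averaged 3.15 ± 0.706 RPKM. mRpL45, which lies beside the exit of the nascent chain and helps attach the ribosome to the inner membrane in mammals, averaged 4.41 ± 1.07 RPKM, and mRpL44, which resembles RNase III, averaged 3.42 ± 0.738 RPKM. None of these 5 genes passed the test in any of the 7 comparisons made below.

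The members are short genes in crowded surroundings, by the Ensembl annotation of BDGP6.54. Their exons had a median length of 783 bases, against 1734 bases for the 13883 protein-coding features placed by the annotation. The nearest non-overlapping gene lay within 500 bases for 67 members (93.1%), against 65.3% of protein-coding features. For 51 members (70.8%), the upstream neighbour started away from the member on the opposite strand within that distance, which was the case for 26.1% of protein-coding features. These are descriptions of the annotation, without a test. The members lay on chromosome arms 2L (12 genes), 2R (12), 3L (16), 3R (21) and X (11).

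The crowding reached into the exons of some members, so that their counts could lose reads or hold those of a neighbour. In 10 members the exons of another gene covered more than 10% of their own, and the strand setting of the counting is not given in the sources used here. Opposite-strand overlaps covered 55.3% of mRpS24 (TBC1d7), 25.1% of mRpS9 (ArgRS-m), 23.6% of mRpL17 (CG34263), 20.8% of mRpL48 (frtz) and 11.1% of mRpL35 (CG6028). In mRpL13, 35.2% of exon bases were shared with CG10602 on the same strand. The exons of mRpL53 lay wholly within exons of the longer CG33155 on its own strand, and mRpL53 had 0 counts in all 18 libraries. For mRpS21, mRpS14 and mRpS18C the covered shares were 48.0%, 32.0% and 11%.

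Of the 72 members, 55 had more than 10 counts in every sample and were tested, 38 of the large and 17 of the small subunit. The 17 others were mRpL14, mRpL23, mRpL32, mRpL34, mRpL36, mRpL40, mRpL41, mRpL53, mRpL54, mRpS6, mRpS10, mRpS14, mRpS18A, mRpS18C, mRpS21, mRpS28 and mRpS34. When features with low counts were kept in the fit, 0 of the 16 of them with counts passed the edgeR test in any comparison, with 0 or 1 of them at an unadjusted p under 0.05 in each, and the smallest adjusted p was 0.129 for mRpS21 in 8 h over 3 h. Depth limited what could be seen for the tested members too, since their median counts per library lay between 23 and 447.5. Among the 71 members with counts at D5, mRpS23 had the widest spread between replicates on the log2 scale, equal to that of mRpL34 at an SD of 1.03, with 2.84, 0.679 and 1.97 cpm in the 3 D5 samples.

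The summed level of the members differed little between conditions. All 72 together gave 301, 266 and 301 cpm at D5, 303, 320 and 353 cpm at 3 h, 379, 308 and 326 cpm at 5 h, and 286, 286 and 295 cpm at 8 h. In aged flies the sums were 258, 272 and 241 cpm at D15 and 298, 288 and 263 cpm at D30. All 3 h and 5 h sums lay above those of D5, and the D15 sums overlapped with D5 only through D5 replicate 2. The higher sums do not describe most members. mRpL28 averaged 52 cpm at 3 h and 46.7 cpm at 5 h, against 20.9 cpm at D5. mRpS11 averaged 27.1 and 15.6 cpm, against 5.44 cpm. The median log2 fold change of the members, described below, was -0.11 at 3 h and 0.06 at 5 h. The highest sum, in 5 h replicate 1, included 63.8 cpm of mRpL28 and 28.9 cpm of mRpS11. Large-subunit genes gave 1.42 to 1.74 times the cpm of small-subunit genes in every sample.

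**Figure D2:**
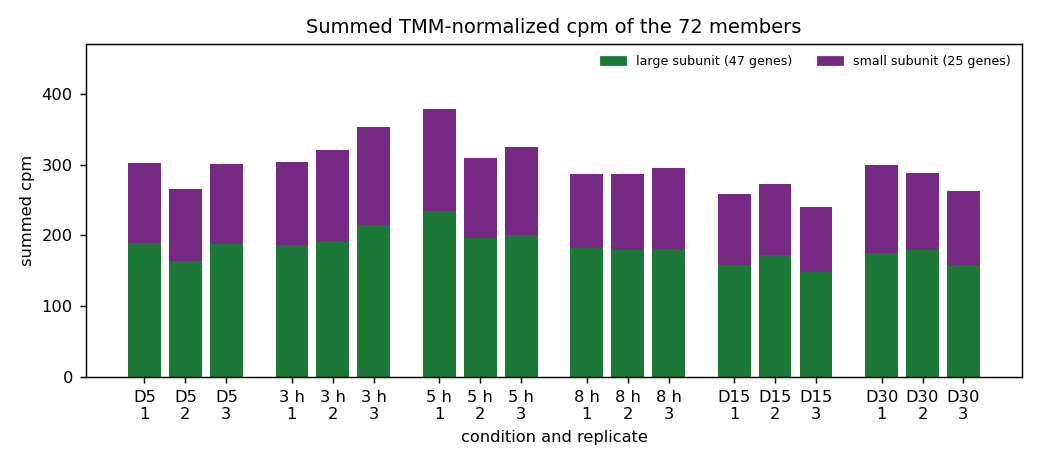
Summed cpm of the 72 members in each of the 18 samples (vertical axis), with large-subunit genes in green and small-subunit genes in purple. The sums lie between 241 cpm in D15 replicate 3 and 379 cpm in 5 h replicate 1.

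To ask which members responded to light or age, each condition was compared with D5, and 8 h also with 3 h and D30 with 8 h. Log2 fold changes and their SE come from 1 edgeR quasi-likelihood fit of all 9427 tested features with 2 factors of unwanted variation (RUVs), and a gene was called at a Benjamini-Hochberg adjusted p under 0.05. Since the 5 comparisons with D5 share the D5 samples, their results are not independent. Across the 7 comparisons, 385 tests of members gave 8 calls, in the 5 genes mRpS11, mRpL28, mRpL37, mRpL20 and mRpS18B. By comparison, between 0% and 3.64% of the members were called, against between 3.81% and 17.5% of all tested features. No member was called in more than 2 of the 5 comparisons with D5.

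**Figure D3:**
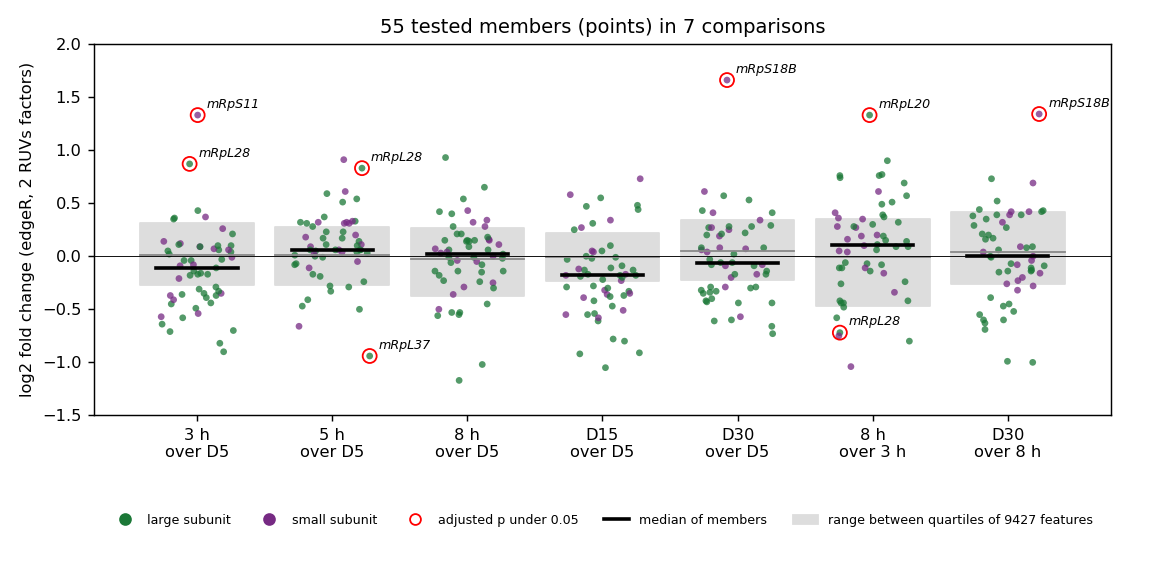
Log2 fold change (vertical axis) of the 55 tested members in 7 comparisons, large subunit in green and small subunit in purple. Red rings mark the 8 calls, black lines the median of the members, grey lines the median of all 9427 tested features and grey boxes the range between their quartiles. The members' medians lie between -0.18 and 0.11.

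After 3 h of blue light, mRpS11 and mRpL28 rose and no member fell. mRpS11 had 25.5, 24.5 and 31.3 cpm at 3 h, against 3.8, 7.01 and 5.49 cpm at D5. The groups did not overlap, and the log2 fold change was 1.33 (SE 0.38, edgeR adjusted p = 0.047). mRpL28 had 42.2, 46.8 and 67.1 cpm at 3 h, against 21.3, 19.7 and 21.8 cpm at D5. Its groups did not overlap either, with a log2 fold change of 0.87 (SE 0.20, edgeR adjusted p = 0.0186). The fitted changes are smaller than the cpm show because the factors took up part of the difference. Without factors they were 2.32 for mRpS11 and 1.32 for mRpL28.

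The 2 called genes were 3.64% of the 55 members, and 7.86% of all tested features were called at 3 h, 4.61% higher and 3.25% lower. All 3 values at 3 h lay above all 3 at D5 for 5 of 55 members and below them for 12, against 22% and 23.2% of all features. The members as a group were slightly lower, at a median of -0.11 on the log2 scale with 21 of 55 positive, where the median of all features was 0.01. The largest decrease was that of mRpL19, which in bacteria sits at the interface between the subunits. It had 1.95, 1.84 and 1.05 cpm at 3 h, against 3.86, 2.55 and 2.82 cpm at D5, and a log2 fold change of -0.90 that did not pass (SE 0.37, edgeR adjusted p = 0.153). The 95% interval of the log2 fold change lay within 1 of 0 for 29 of the 55 members, and for the others it reached past 1 on at least 1 side.

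The call for mRpS11 depended on single libraries: leaving out D5 replicate 1 or 3, or any of the 3 h replicates, gave adjusted p-values of 0.0829 to 0.145 at log2 fold changes of 1.16 to 1.36. mRpL28 was called in all 6 such fits. The summed glia markers were 1380 to 2050 cpm at 3 h, against 456 to 548 cpm at D5. Of the 7 markers, Eaat1, a glutamate transporter, was the called one, at 1390 ± 381 cpm against 126 ± 37.5 cpm (SD, n = 3 each), while repo, the transcription factor that defines glia, was at 19.2 ± 2.57 cpm at 3 h and 27.9 ± 3.54 cpm at D5. The part of this in the members' changes was not tested.

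After 5 h, mRpL28 was again higher and mRpL37 was lower, and these were the called genes among 55 (3.64%, against 9.52% of all features, 5.04% higher and 4.48% lower). mRpL28 had 63.8, 39.9 and 36.5 cpm at 5 h, against 21.3, 19.7 and 21.8 cpm at D5. The log2 fold change was 0.83 (SE 0.18, edgeR adjusted p = 0.0112), and the gene stayed called without 5 h replicate 1, its highest sample, at 0.74. mRpL37, a large-subunit protein that animals have and bacteria lack, had 2.31, 1.98 and 1.60 cpm at 5 h, against 3.29, 3.11 and 4.23 cpm at D5. The groups did not overlap, with a log2 fold change of -0.94 (SE 0.27, edgeR adjusted p = 0.0444). The mRpL37 call was lost without D5 replicate 1, 2 or 3 or without 5 h replicate 2 or 3, at adjusted p-values of 0.0517 to 0.212.

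5 h replicate 1 differed from the other 5 h libraries at mRpS11, and not at this gene alone. The chi-square per degree of freedom between libraries was 316 and 621 for it against replicates 2 and 3. Between replicates 2 and 3 it was 116. The gene had 28.9, 11.1 and 6.83 cpm at 5 h, against 3.8, 7.01 and 5.49 cpm at D5. The groups overlapped, and the log2 fold change of 0.91 did not pass (SE 0.34, edgeR adjusted p = 0.107). The small-subunit gene mRpS33 showed the same order of libraries, with 10.5, 3.44 and 2.54 cpm at 5 h and 6.3, 7.78 and 4.89 cpm at 3 h, against 2.04, 3.45 and 2.35 cpm at D5. This gene was picked after its values were seen and was not called at either time. As a group, the members had a median log2 fold change of 0.06 at 5 h, with 38 of 55 positive, and the median of all features was 0.01. The groups were apart for 4 members that were higher and 4 that were lower, against 12.6% and 14% of all features.

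After 8 h, 0 of 55 members passed the edgeR test, while 9.08% of all features did, 4.6% higher and 4.48% lower. At an unadjusted p under 0.05 there were 5, and a DESeq2 Wald test called 0. mRpS11 was back among the D5 values, with 4.99, 6.16 and 5.76 cpm at 8 h. mRpL28 had 23.1, 27.4 and 28.7 cpm at 8 h, against 21.3, 19.7 and 21.8 cpm at D5, which did not overlap but gave a log2 fold change of 0.15 (SE 0.20, edgeR adjusted p = 0.661). The median log2 fold change of the members was 0.02, with 28 of 55 positive, and that of all features was -0.03. All 3 values at 8 h lay above D5 for 6 of 55 members and below D5 for 8, against 25.4% and 25.1% of all features.

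The largest increase at 8 h was in mRpL20, whose bacterial counterpart is needed early in the assembly of the large subunit. It had 3.22, 2.69 and 2.03 cpm at 8 h, against 1.70, 1.75 and 1.74 cpm at D5, with a log2 fold change of 0.93 (SE 0.33, edgeR adjusted p = 0.088). The largest decrease was in mRpL35, another protein of the large subunit, with 1.29, 1.74 and 1.25 cpm at 8 h, against 3.91, 2.26 and 1.55 cpm at D5. Its groups overlapped because the D5 samples were widely spread, and the log2 fold change was -1.17 (SE 0.50, edgeR adjusted p = 0.154).

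**Figure D4:**
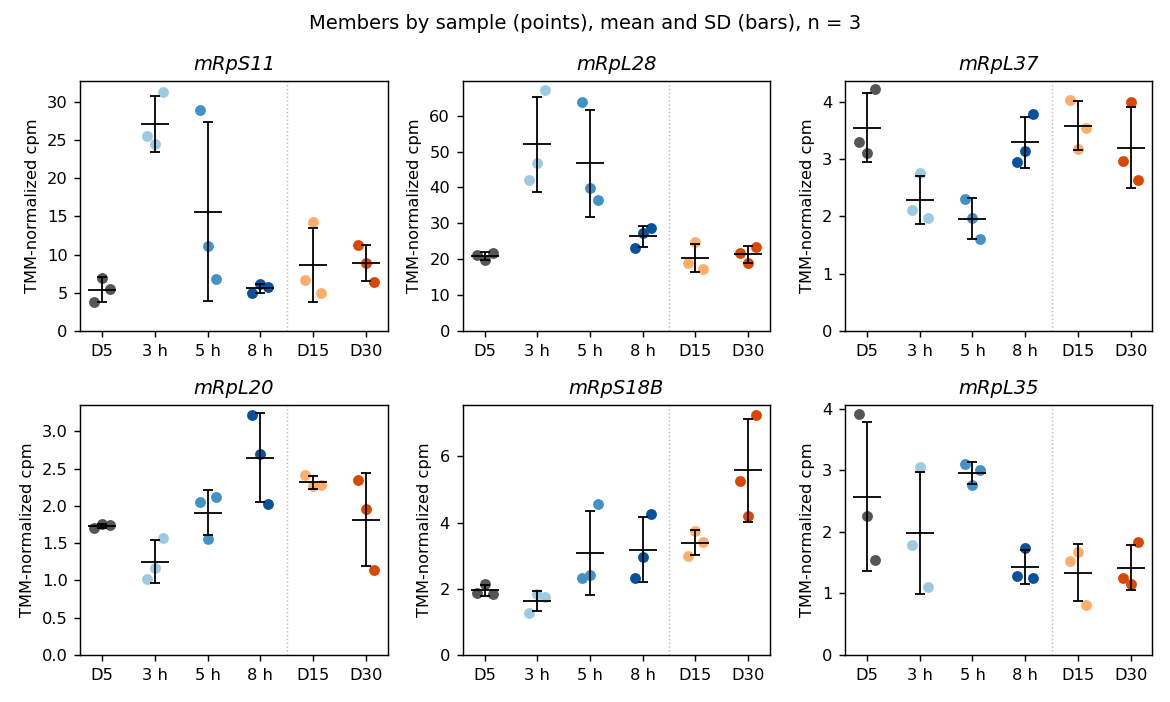
TMM-normalized cpm (vertical axis, from 0) of 6 members in each sample, with D5 and the blue-light conditions in order of hours and the aged conditions right of the dotted line. Points are the 3 samples of a condition, and bars show their mean and SD. mRpL28 is high in all 3 h and 5 h samples, mRpS11 in all 3 h samples and in 5 h replicate 1, and mRpS18B is highest at D30.

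The difference between long and short exposure was tested within 1 lane. In 8 h over 3 h, mRpL20 rose and mRpL28 fell, 2 of 55 members (3.64%) against 15.5% of all features, 6.41% higher and 9.1% lower. mRpL20 had 3.22, 2.69 and 2.03 cpm at 8 h, against 1.02, 1.16 and 1.57 cpm at 3 h. The groups did not overlap, with a log2 fold change of 1.33 (SE 0.39, edgeR adjusted p = 0.0321). mRpL28 had 23.1, 27.4 and 28.7 cpm at 8 h, against 42.2, 46.8 and 67.1 cpm at 3 h. Its groups were also apart, at a log2 fold change of -0.72 (SE 0.23, edgeR adjusted p = 0.0489).

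Other members were well separated between 8 h and 3 h in cpm but not called. mRpS11 had 4.99, 6.16 and 5.76 cpm at 8 h, against 25.5, 24.5 and 31.3 cpm at 3 h, and its log2 fold change of -1.04 had an adjusted p of 0.116 in edgeR. All 3 values at 8 h lay above those at 3 h for 17 of 55 members and below them for 6, against 27.7% and 29% of all features. The median log2 fold change of the members was 0.11, with 34 of 55 positive, and that of all features was -0.01. The calls here depended on the factors, since 13 members (23.6%) were called without them, 7 higher and 6 lower, as were 36.7% of all features, among them mRpS11 at -2.27 and mRpS33 at -1.77. They also depended on single libraries. mRpL20 was not called without 3 h replicate 1 or 2 or 8 h replicate 1 or 2 (adjusted p 0.0671 to 0.182), and mRpL28 was not called without 3 h replicate 2 or 3 or any 8 h replicate (0.0515 to 0.172).

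With age, the change was small at D15. In the comparison of D15 with D5, which shared a lane, 0 of 55 members passed the edgeR test, where 3.81% of all features did, 1.52% higher and 2.29% lower. There were 8 members at an unadjusted p under 0.05, and DESeq2 called 0. The members leaned to lower levels, at a median of -0.18 on the log2 scale with 14 of 55 positive, beside a median of -0.01 for all features. Markers of other cells were also lower at D15, with 5 of 9 markers of other neurons called lower (median -0.67) and 4 of 7 markers of hemocytes and fat body (median -0.97). The R1–R6 sums were 77400 to 81300 cpm at D15, against 55400 to 66300 cpm at D5, but 0 of 11 R1–R6 markers were called (median 0.24). The part of other cells in the members' levels was not tested. All 3 D15 values lay below all 3 D5 values for 11 of 55 members and above them for 3, against 17.2% and 16.7% of all features.

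The largest decrease at D15 was in mRpL35 and the largest increase in mRpS18B. mRpL35 had 1.53, 1.68 and 0.804 cpm at D15, against 3.91, 2.26 and 1.55 cpm at D5, with overlapping groups and a log2 fold change of -1.05 (SE 0.43, edgeR adjusted p = 0.170). mRpS18B had 2.99, 3.75 and 3.42 cpm at D15, against 1.87, 2.15 and 1.83 cpm at D5. These groups did not overlap, and the log2 fold change was 0.73 (SE 0.28, edgeR adjusted p = 0.148). mRpS9, among the highest members, had 18.2, 19.3 and 15.6 cpm at D15, below the 26.5, 21.7 and 21.9 cpm of D5, with a log2 fold change of -0.35 that did not pass (SE 0.17, edgeR adjusted p = 0.271).

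At D30, mRpS18B was the called member, 1 of 55 (1.82%) where 17.5% of all features were called, 8.77% higher and 8.72% lower. The D30 libraries differed from the others, with 25.2% to 26.6% of pairs not uniquely placed, against 7.95% to 10.5% at D5, and 24.5% to 26.3% of pairs on genes, against 35.4% to 41.5% at D5. Of 9 markers of other neurons, 7 were called lower at D30, and the part of either in the members' changes was not tested. mRpS18B had 5.26, 4.21 and 7.26 cpm at D30, against 1.87, 2.15 and 1.83 cpm at D5. Every D30 sample was above every D5 sample, and the log2 fold change was 1.66 (SE 0.26, edgeR adjusted p = 0.00106). The gene was called in all 14 alternative fits that could test it, at log2 fold changes of 1.33 to 1.81, including the fit without D30 replicate 1 at 1.64. All 3 values of mRpS18B also lay above D5 after 5 h and after 8 h of light, without passing. The log2 fold changes were 0.61 at 5 h and 0.32 at 8 h (edgeR adjusted p = 0.185 and 0.559). The median log2 fold change of the members was -0.06, with 25 of 55 positive, beside 0.05 for all features. The D30 values lay above those of D5 for 3 members and below them for 5, against 15.1% and 11.3% of all features. The largest decrease was -0.73 in mRpL35, with 1.25, 1.16 and 1.84 cpm at D30 (SE 0.42, edgeR adjusted p = 0.245).

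mRpS18B encodes 1 of 3 related proteins, mRpS18A, mRpS18B and mRpS18C, that descend from a single bacterial S18 and occupy different places in the animal mitochondrial ribosome. mRpS18A had 2.24, 4.86 and 2.45 cpm at D30, against 2.1, 1.3 and 1.46 cpm at D5, and every D30 value exceeded every D5 value. mRpS18C had 0.678, 0.871 and 1.58 cpm at D30, against 1.25, 0.848 and 2.21 cpm at D5, and its groups overlapped. Neither of these passed the count filter. In the fit without a filter, the log2 fold change at D30 was 0.13 for mRpS18A (SE 0.46, edgeR adjusted p = 0.931). For mRpS18C it was -0.58 (SE 0.56, edgeR adjusted p = 0.664). mRpL45 was lower at D30 without passing, with 3.75, 3.92 and 3.15 cpm at D30, against 5.73, 4.64 and 6.43 cpm at D5 (-0.60 on the log2 scale, SE 0.22, edgeR adjusted p = 0.0683).

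In D30 over 8 h, mRpS18B was again the called member, 1 of 55 where 7.5% of all features were called, 4.6% higher and 2.9% lower. It had 5.26, 4.21 and 7.26 cpm at D30, against 2.31, 2.97 and 4.26 cpm at 8 h. The groups overlapped in cpm, and the fitted log2 fold change was 1.34 (SE 0.36, edgeR adjusted p = 0.0368). The call was lost without 8 h replicate 1 or 2 or D30 replicate 1 or 3, with log2 fold changes of 0.75 to 1.29. The largest decrease was in mRpL20, with 2.35, 1.96 and 1.14 cpm at D30, against 3.22, 2.69 and 2.03 cpm at 8 h (-1.0 on the log2 scale, SE 0.41, edgeR adjusted p = 0.158). The median of the members was 0.00, with 27 of 55 positive, and that of all features was 0.04. The groups were apart for 4 of 55 members that were higher and 5 that were lower at D30, against 23.9% and 22.3% of all features.

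Some called members were examined beside neighbouring genes, placed by the annotation of BDGP6.54. mRpS18B (chr2L:20096329-20097253, minus strand) starts 327 bases from Kua, which runs the other way and whose human counterpart PEDS1 makes plasmalogens. Kua had 13.8 ± 5.16 cpm at D30, against 2.97 ± 1.46 cpm at D5 (SD, n = 3 each), and was called higher at D30 (2.4 on the log2 scale, SE 0.34, edgeR adjusted p = 0.000595). Kua also passed at D15, where mRpS18B did not, with a log2 fold change of 1.63 (SE 0.35, edgeR adjusted p = 0.0247). The nearer neighbour of mRpS18B, nesd, 75 bases downstream on the opposite strand, did not pass the count filter.

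Another called member, mRpS11 (chr3R:17072732-17073795, plus strand), lies 56 bases from Ns1, a nucleolar GTPase, and 146 bases from Keap1, which restrains the antioxidant response. At 3 h, the log2 fold changes of Ns1 and Keap1 were -0.32 and -0.06, with edgeR adjusted p-values of 0.562 and 0.875. mRpL28 (chr2L:4973976-4975316, plus strand) has an upstream neighbour at 54 bases on the opposite strand, FBgn0010607, whose log2 fold changes of 0.91 at 3 h and 0.33 at 5 h did not pass (edgeR adjusted p = 0.201 and 0.604). mRpL37 occupies chr3R:10782563-10784092 on the minus strand and mRpL20 chr3L:13017149-13017867 on the minus strand.

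Proteins of the mitochondrial ribosome that carry other names were tko and bonsai. tko is the small-subunit protein S12 of the decoding centre, and its mutants are sensitive to mechanical shock. It had 59.9 ± 23.0 cpm at 3 h and 21.0 ± 3.95 cpm at 8 h (SD, n = 3 each), and it was called lower in 8 h over 3 h (-1.31 on the log2 scale, SE 0.33, edgeR adjusted p = 0.0158). In 3 h over D5, where D5 had 27 ± 6.43 cpm, tko did not pass (0.73 on the log2 scale, SE 0.28, edgeR adjusted p = 0.132). At D30 tko was lower, with 15.2 ± 3.09 cpm (-0.77 on the log2 scale, SE 0.24, edgeR adjusted p = 0.0366). bonsai, the S15 protein, was not called in any of the 7 comparisons.

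The ribosomal RNAs encoded in mitochondria, mt:lrRNA and mt:srRNA, were detected in these nuclear preparations and were not called in any comparison. Ribosomal RNA was removed before sequencing, and RNA of the mitochondrial genome is made outside the nucleus. The part of that removal, and of mitochondria carried along with the nuclei, in the values of this paragraph was not tested. mt:lrRNA averaged 382 ± 21.1 cpm at 3 h and 458 ± 354 cpm at D5. The 11 testable genes of the mitochondrial genome had a median of -1.27 on the log2 scale in 8 h over D5. Of them, 1 was called lower (9.09%, against 9.08% of all features). In D30 over 8 h the median was 1.88, with 3 called higher (27.3%, against 7.5%). mt:CoII, a subunit of cytochrome c oxidase, was called in both, at -1.05 and 1.19. In 8 h over 3 h, within 1 lane, the median was -1.6, with 2 called lower (18.2%, against 15.5%). There, all 3 values at 8 h lay below those at 3 h for 11 of the 11 genes, against 29% of all features.

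Other nuclear genes of the same translation system gave between 0 and 2 calls per list in each comparison. Of 8 tested translation factors, mIF2, which places the initiator tRNA, was called higher in 8 h over 3 h (log2 fold change 1.31). This was 12.5% of the list, against 15.5% of all features. mIF3 had 1.21 in 3 h over D5 without passing (edgeR adjusted p = 0.0771). Of 16 mitochondrial aminoacyl-tRNA synthetases, 1 was higher and 1 lower at 3 h (12.5%, against 7.86% of all features), 1 was higher at 5 h (6.25%, against 9.52%) and 1 at 8 h (6.25%, against 9.08%), and 0 passed the edgeR test at D15 or D30, where 3 and 2 of them had an unadjusted p under 0.05. AspRS-m was at -0.82 and ArgRS-m, whose exons overlap mRpS9 on the opposite strand, at 0.68 in 3 h over D5. Among 10 genes of mitochondrial DNA maintenance and transcription, 1 was called at 3 h (10%, against 7.86% of all features) and 2 in 8 h over 3 h (20%, against 15.5%). mTerf3, a regulator of mitochondrial transcription and ribosome assembly, had 198 ± 101 cpm at 3 h, against 10.3 ± 0.89 cpm at D5 (log2 fold change 1.93, edgeR adjusted p = 0.0031). PolG1, the mitochondrial DNA polymerase, was higher at 8 h (log2 fold change 0.96, edgeR adjusted p = 0.0147). It was 1 of 10 genes (10%), against 9.08% of all features.

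Quality control and import genes were each represented by 8 tested genes. Of the chaperones and proteases, Spg7, a protease that matures mRpL32 in other species, was called higher at 3 h (log2 fold change 0.98, edgeR adjusted p = 0.0219) and at 5 h (0.75), 12.5% of the list at both times, against 7.86% and 9.52% of all features. Of the 8 import genes, 1 was higher and 2 were lower at D30 (37.5%, against 17.5% of all features). Tim17b, a channel subunit of the inner membrane, was at 0.50, and the small chaperone Tim8 was at -0.99.

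The 2 large families nearest in function gave more calls in some comparisons. Of 68 tested genes of the respiratory chain and ATP synthase, 15 fell at D15 (22.1%, median log2 fold change -0.48). Of all features, 3.81% were called at D15, 2.29% lower. At D30, 14 fell (20.6%, median -0.33), where 17.5% of all features were called, 8.72% lower. At 5 h, 9 rose and 0 fell (13.2%, median 0.25), where 9.52% of all features were called, 5.04% higher. Calls at D15 depended on the factors, as 15 of all features were called without them and 359 with them. In 8 h over 3 h, 12 fell (17.6%), where 15.5% of all features were called, 9.1% lower. Among the 12 were ND-B17 and ND-B17.2, subunits of complex I, at -0.79 and -1.04. Of 83 tested cytosolic ribosomal proteins, 14 fell in 8 h over 3 h (16.9%, median -0.55), with RpS29 at -1.15. In D30 over 8 h, 9 rose (10.8%, median 0.49), where 7.5% of all features were called, 4.6% higher. RpS15Aa, in the small cytosolic subunit, was at 1.63 in 3 h over D5. The difference between these shares and those of the members was not tested. The members had a larger median SE than all features, between 0.29 and 0.42 in the 7 comparisons against 0.20 and 0.28.

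**Figure D5:**
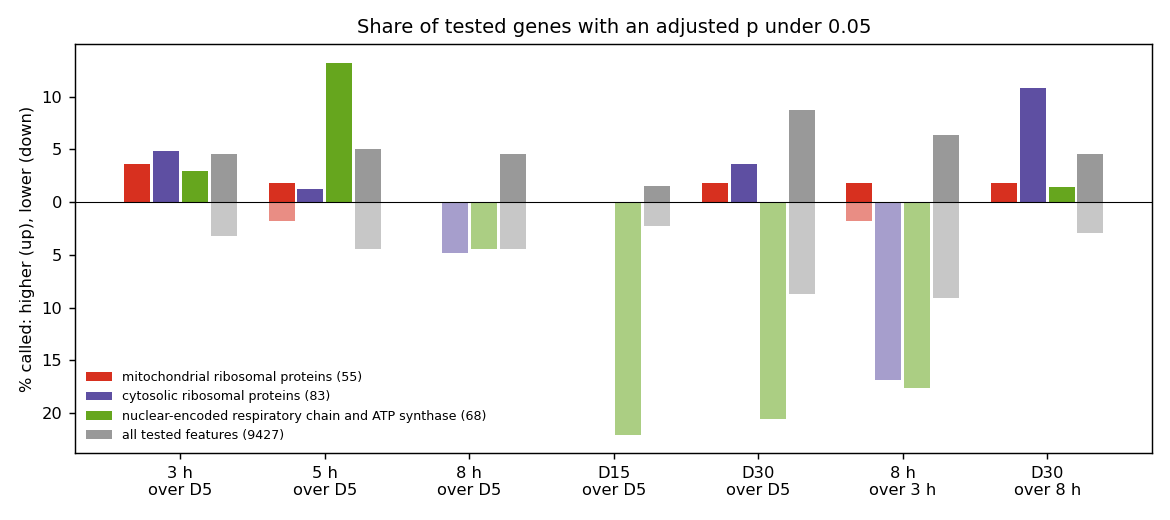
Percentage of tested genes called higher (bars above 0) or lower (bars below 0, lighter) in each of the 7 comparisons, for 55 members, 83 cytosolic ribosomal proteins, 68 respiratory chain and ATP synthase genes and all 9427 tested features. The members have no bar for D15 over D5 and 8 h over D5, whereas 22.1% of the respiratory chain genes are lower at D15.

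Regulators of nuclear-encoded mitochondrial genes were examined as a list of 7. ewg, the fly counterpart of human NRF1, was called higher at D30 (0.41 on the log2 scale, SE 0.13, edgeR adjusted p = 0.0365). It was 1 of 7 (14.3%), where 17.5% of all features were called. foxo, a transcription factor downstream of insulin signaling, was called lower in 8 h over 3 h (-0.71 on the log2 scale, SE 0.19, edgeR adjusted p = 0.0224). There too, 1 of 7 was called (14.3%), against 15.5% of all features. srl, the fly PGC-1 coactivator, had 23.8 ± 1.99 cpm at D30, against 9.20 ± 0.955 cpm at 8 h (SD, n = 3 each), and did not pass (1.11 on the log2 scale, SE 0.35, edgeR adjusted p = 0.0655). Ets97D, the fly GABP alpha, had 43.8 ± 11 cpm at 3 h, against 13.8 ± 4.46 cpm at D5, with a log2 fold change of 0.55 that did not pass (edgeR adjusted p = 0.189). Myc, crc (the fly ATF4) and Dref were not called in any comparison. Myc averaged 256 ± 40.9 cpm at 3 h and 136 ± 62.8 cpm at D5, with a log2 fold change of -0.32 once the factors were fitted.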

How the data were processed

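The authors deposited raw HTSeq counts per gene, without normalization, for 18 samples. Per the study's methods and the submitters' processing notes, reads were trimmed with Trimmomatic, aligned with HISAT2 to dm6 (BDGP6.28 in the methods) and counted with HTSeq 0.11.1; the methods give another HTSeq version, and the strand setting is not given in the sources used here. Ambiguous read pairs, which HTSeq leaves uncounted, were 1.04% to 2.00% of all pairs, and 24.5% to 44.9% fell on genes. The rows of uncounted pairs stayed out of library sizes and tests. Counting gives an uneven precision, since members had median counts between 0 and 447.5.

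Groups came from the sample titles. The fit kept features whose count exceeded 10 in each of the 18 samples (9427 of 17811, 52.9%). RUVs was reimplemented, with 2 factors estimated from the replicates. Counts were fitted in edgeR 4.0.16 (R 4.3.3, limma 3.58.1) over all 18 samples after TMM scaling, with 1 mean for each condition beside the 2 factors, and quasi-likelihood F-tests were made. P-values were adjusted by Benjamini-Hochberg across the 9427 features. The pipeline was tested on simulated data. RPKM used exon lengths from the Ensembl annotation of BDGP6.54, in which all 72 members were placed, and cpm and RPKM were scaled by TMM and not adjusted for the factors. Marker sums are sums of such cpm. Intervals of 95% used the degrees of freedom of the fit.

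The alternatives were 0, 1 or 3 factors, cpm over 10 in every sample (a wording of the methods) or no filter, DESeq2 size factors, a DESeq2 1.42.0 Wald test, fits of the 6 samples compared, the replicate number as a block, and fits without each replicate. Replicate libraries differed by more than sampling noise, so none was counted as a duplicate.

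The members were chosen by their symbols, and members and gene lists were chosen with earlier results of these data known. Members are named if called in a comparison (up to 4 in each direction), largest in change where none was called, called in 3 of 5 comparisons with D5, among the 4 highest or 4 lowest by RPKM, below the filter, in the mRpS18 family or with a well-studied role (mRpL12, mRpL10, mRpS29, mRpL45, mRpL44), most variable at D5, or with exons overlapped by more than 10%. The lists give up to 2 examples each, those with the smallest p, and all regulators. mRpS33, mRpL28 at 8 h and the other repeated members at further times are described beyond that rule. No sequences are shown, since no sequence tables were used here.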

Additional observations from a re-analysis of the deposited data

Results flagged for a closer look

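Effects at 2 exposure times or between age and light differed in the direct edgeR test for 3 results. In 8 h over 3 h, the log2 fold change of mRpL20 was 1.33 and that of mRpL28 was -0.72. In D30 over 8 h, the log2 fold change of mRpS18B was 1.34. Each of these calls was lost in some of the fits that left out 1 library, as given above.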

How the results depend on the processing

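No called member reversed its direction in any alternative that tested it. mRpL28 was called at 3 h and 5 h in all 15 alternatives each and mRpS18B at D30 in all 14. mRpS11 at 3 h was called in 7 of 14 (adjusted p 0.00119 to 0.145), mRpL37 at 5 h in 5 of 14 (0.027 to 0.212), mRpL20 in 8 h over 3 h in 7 of 14 (0.00827 to 0.182), mRpL28 there in 8 of 15 (0.00181 to 0.172) and mRpS18B in D30 over 8 h in 6 of 14 (0.0213 to 0.204). The cause of these changes was not tested.

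Called members numbered 2 at 3 h, 2 at 5 h, 0 at 8 h, 0 at D15, 1 at D30, 2 in 8 h over 3 h and 1 in D30 over 8 h. Without factors they were 5 at 3 h (19.2% of all features were called), 13 in 8 h over 3 h (36.7%) and 4 in D30 over 8 h (25.8%), with medians of -0.26 at 3 h and 0.18 in 8 h over 3 h. With 1 factor they were 1 at 3 h and 6 in D30 over 8 h (38.8% of all features), and with 3 factors 1 at 3 h and 1 in 8 h over 3 h. The filter at cpm over 10 left 2 members to test, with 1 call at 3 h, 1 at 5 h, 0 at D30, 1 in 8 h over 3 h and 0 in D30 over 8 h, and medians of 0.46 at 3 h, 0.42 at 5 h, -0.33 in 8 h over 3 h and -0.16 in D30 over 8 h. Without a filter, 1 was called at 5 h and 0 in D30 over 8 h, and the medians over 71 members were -0.24 at 3 h, -0.24 at D30, 0.22 in 8 h over 3 h and -0.12 in D30 over 8 h. DESeq2 called 2 at D30, where mRpS30 at -0.59 was added. Fits of 6 samples called 3 at D15 (mRpL16, mRpL49 and mRpS30, all lower), 3 at D30, 11 in 8 h over 3 h (median 0.25), where 21.6%, 20.1% and 47% of all features were called, and 0 in D30 over 8 h.

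The replicate numbers were not taken as pairs, since in no comparison did all 3 same-numbered pairs correlate above 0.1. With the replicate number as a block, 1 member was called at 5 h, 1 at 8 h (mRpL35, -1.78), 1 at D15 (mRpL35, -1.21), 1 in 8 h over 3 h (mRpL35 at -1.77, while mRpL20 and mRpL28 lost their calls at adjusted p of 0.146 and 0.136; median 0.03) and 0 in D30 over 8 h (median 0.08).

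When single replicates were left out, called members ranged between 1 and 2 at 3 h and at 5 h, 0 and 1 at 8 h, 0 and 0 at D15, 1 and 3 at D30, 0 and 2 in 8 h over 3 h, and 0 and 3 in D30 over 8 h. The medians ranged between -0.22 and -0.01 at 3 h, 0.01 and 0.18 at 5 h, -0.03 and 0.12 at 8 h, -0.25 and -0.11 at D15, -0.18 and 0.07 at D30, -0.04 and 0.14 in 8 h over 3 h, and -0.05 and 0.11 in D30 over 8 h. All features called also varied, at D15 between 10 without D5 replicate 3 and 2037 in the fit of 6 samples, beside 359.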
